A study of Homo sapiens with 6 samples.

Results

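DNA replication and nucleotide supply genes are described here across 6 one-colour expression arrays of AGS and HGC-27 cells, a pair of human gastric cancer lines. The set holds 46 genes named for their roles in origin licensing, origin firing, the replication fork, deoxynucleotide synthesis and entry into S phase. The array names 19775 genes by a probe set with a single gene, and 13738 of them passed the filter on low values. All 46 members passed it, and no member lay under the median of all deposited values on any array. Each gene was read from 1 probe set, the one with the highest mean over the 6 arrays. The probe sets of CDT1, ORC6 and DUT carry a name ending that marks possible cross-hybridization with other transcripts.

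The study asked which genes respond to MIST1, a basic helix-loop-helix transcription factor of secretory cells encoded by BHLHA15. Each line gave 1 array per condition. MIST1 cells had received 3 µg of a MIST1 plasmid with 1.5 µg of a GFP plasmid, and GFP control cells the same amounts of empty vector and GFP plasmid. Both were sorted for GFP fluorescence 24 h after nucleofection and grown for another 24 h. Parental cells received no plasmid and are nowhere said to have been sorted, so transfection, sorting and handling cannot be told apart in any comparison with them. Expression was transient, neither the promoter of the construct nor its species is given, and there was no second array of any line and condition. The labels do not say whether the arrays of a line came from separate cultures.

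A cell copies its genome once per cycle in ordered steps. The origin recognition complex, CDC6 and CDT1 load the MCM helicase during G1, and geminin (GMNN) blocks reloading by binding CDT1. At the start of S phase the CDC7-DBF4 kinase, MCM10, CDC45 and the GINS complex turn the loaded helicase into an active fork, where RPA coats single strands, replication factor C loads the PCNA clamp, and DNA polymerases alpha, delta and epsilon copy the strands. E2F1 and the E cyclins drive this entry, and many replication genes are known E2F targets, so the set is often read as a measure of how many cells are cycling. In bulk RNA, more cells in S phase and more transcript per cell cannot be told apart.

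The promoters below are those of the genes with the largest differences between GFP control and parental cells that the table holds, and they show whether letters bound by E2F factors lie near the start. They are from RefSeq (GRCh38.p14), each is the 120 bases before the transcription start, and capitals mark an E2F match.
CDT1, chr16:88803669-88803788, plus strand: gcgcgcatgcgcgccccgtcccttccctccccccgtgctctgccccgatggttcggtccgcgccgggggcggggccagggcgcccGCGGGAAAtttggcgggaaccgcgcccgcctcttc
RFC4, chr3:186806483-186806602, minus strand: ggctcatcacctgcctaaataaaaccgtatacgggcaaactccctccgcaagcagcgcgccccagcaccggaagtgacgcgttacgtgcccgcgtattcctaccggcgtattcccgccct
E2F1, chr20:33686386-33686505, minus strand: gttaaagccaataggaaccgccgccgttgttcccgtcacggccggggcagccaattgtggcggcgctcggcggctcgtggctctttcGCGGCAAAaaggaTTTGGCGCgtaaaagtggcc
CDC6, chr17:40287759-40287878, plus strand: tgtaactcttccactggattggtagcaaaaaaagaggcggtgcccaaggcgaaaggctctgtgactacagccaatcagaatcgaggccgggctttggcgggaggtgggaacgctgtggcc
The search took only TTTCGCGC, TTTGGCGC, TTTCCCGC and TTTGCCGC, on both strands. Near matches were not counted, such as TTTGGCGG, which is in the stretches shown for CDT1 and CDC6. CDT1 had a match starting 35 bases before the start, E2F1 had matches 33 and 20 bases before it, and RFC4 had none. The match of CDC6 to the letters searched lay 7 bases after the start and outside the stretch shown. The table held 39 of the 46 members, and over its window of 300 bases, which runs from 250 bases before to 50 bases after the start, 18 of the 39 promoters held an E2F match (46.2%), against 3.33% of all 27305 promoters. The letters CCAAT, read by the NF-Y factor, were in 21 of the 39 (53.8%), against 35.7% of all promoters. CATATG, an E-box bound by MIST1, was in 0 of the 39, against 3.05% of all. A match is a description of letters and not a site in use, and its absence speaks only of this window and the letters searched.

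The median deposited intensity of an array was 49.12 to 51.96. Ratios of 3′ to 5′ control probe sets lay between 0.826 and 0.883 for GAPDH and between 0.968 and 1.05 for ACTB. The control probe set for the middle of 18S rRNA read 46.8 to 52.7 on the 4 transfected arrays, against 1141.7 in parental AGS and 370.5 in parental HGC-27, and its part in the comparisons with parental cells was not tested. BHLHA15 read 72.5 in MIST1 cells, 75.9 in the GFP control and 66.3 in parental cells of AGS, and 58.7, 61.9 and 41.1 in the same order in HGC-27. It did not mark the arrays labelled MIST1, and whether its probe set reads the construct is not known. The epithelial markers KRT8, KRT18, KRT19 and EPCAM were bright in AGS, where VIM read 250.2 to 297.8. KRT18, KRT19 and EPCAM were at 5.9 to 35.8 in HGC-27, so these defining markers were absent there, with KRT8 at 1349.5 to 1562.1, while VIM read 12532 to 13731. The fibroblast marker COL1A1 read 5620.4 to 5944.4 in HGC-27 and 682 to 1314 in AGS. DCN read 3243.8 to 4607.5 in HGC-27 and 27.2 to 49.6 in AGS, and COL1A2 264.9 to 332.9 and 62.6 to 66.4. Of 13 cell type markers on the array, CD14 of leukocytes and CDH5 of endothelium were above the median of all values on 0 arrays. The leukocyte markers PTPRC, at 15.2 to 52.4, and CD3E, at 41.6 to 66.7, were above it on 1 and 4 arrays, and the endothelial marker PECAM1, at 80.9 to 100.9, on all 6.

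The comparison of MIST1 with the GFP control asks what MIST1 adds to transfection and sorting, and here 0 of the 46 replication genes passed the test (limma). On the chosen probe sets no member reached 1.5-fold in either line. In AGS 1.11% of all genes reached that size upward and 0.713% downward, and in HGC-27 1.27% and 1.14%. In AGS a further probe set of E2F1 and of GINS4 passed it upward, at log2 differences of 0.74 and 0.70. A further probe set of POLD3 passed it downward, at -0.94. Those of GINS4 and POLD3 read under the median of all values on both AGS arrays compared. Over all genes tested the same fit called 0% in each direction. At an unadjusted p under 0.05 it listed 130 genes higher (0.946%) and 54 lower (0.393%), and 0 members. A fit of the 4 arrays compared called 59 genes (0.429%) and again 0 members. At an unadjusted p under 0.05 that fit listed 7 of the 46 members, against 1733 of 13738 genes. The rule of the design, MIST1 at least 1.5-fold above both the GFP control and parental cells of each line, held for 17 genes (0.124%), and its mirror for 0 genes (0%). None of these was a member.

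The E cyclins, which activate the kinase CDK2 at the G1/S boundary, lay on opposite sides of the GFP control with MIST1. Values given in threes are for MIST1, GFP control and parental cells, in that order. CCNE2 read 926 in MIST1, 826 in GFP control and 936 in parental AGS cells, and 703, 585 and 514 in the same order in HGC-27. Its MIST1 value lay above the GFP control in both lines but not above parental AGS cells. The log2 difference of CCNE2 from the GFP control, on the chosen probe set, was 0.21 (SE 0.15, 2 lines). CCNE1 read 1908, 2011 and 1964 on the AGS arrays and 347, 422 and 355 on the HGC-27 arrays, a log2 difference of -0.18 (SE 0.12). In both lines its MIST1 array was the lowest of the 3. E2F1, the transcription factor that drives S-phase genes, was at 355, 285 and 220.1 in AGS and at 584, 575 and 369.6 in HGC-27. Its log2 difference with MIST1 was 0.32 in AGS and 0.02 in HGC-27.

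Among enzymes of nucleotide supply, RRM2, the regulated subunit of ribonucleotide reductase, was highest in MIST1 cells in both lines on the chosen probe set. It read 6706 with MIST1, 5857 in the GFP control and 4954 in parental AGS cells, and 5615, 5192 and 4949 in HGC-27. A further probe set of RRM2 read 4704, 4462 and 3921 in AGS. In HGC-27 that probe set read 3629, 3650 and 3499, so MIST1 was not the highest there. Thymidine kinase 1, TK1, read 4179.5 with MIST1, 3664 in the GFP control and 3187 in parental AGS cells, and 2179, 2035 and 2072 in HGC-27. The MIST1 array again had the highest value of each line. The log2 differences from the GFP control were 0.15 (SE 0.08) for RRM2 and 0.14 (SE 0.10) for TK1. The adjusted p was 1 for both genes and for CCNE2, CCNE1 and E2F1 (limma). Over the set, 20 members lay above the GFP control in each line (24.5% of all genes did) and 9 lay below it in each (32.7%), with fold changes of 0.884 to 1.25 in AGS and 0.82 to 1.2 in HGC-27. The members' log2 differences had an SD of 0.087 in AGS and of 0.105 in HGC-27. Over all genes, which include dimmer probe sets, the SDs were 0.199 and 0.221. The median log2 difference was 0.04 for the members and -0.02 for all genes.

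**Figure D1:**
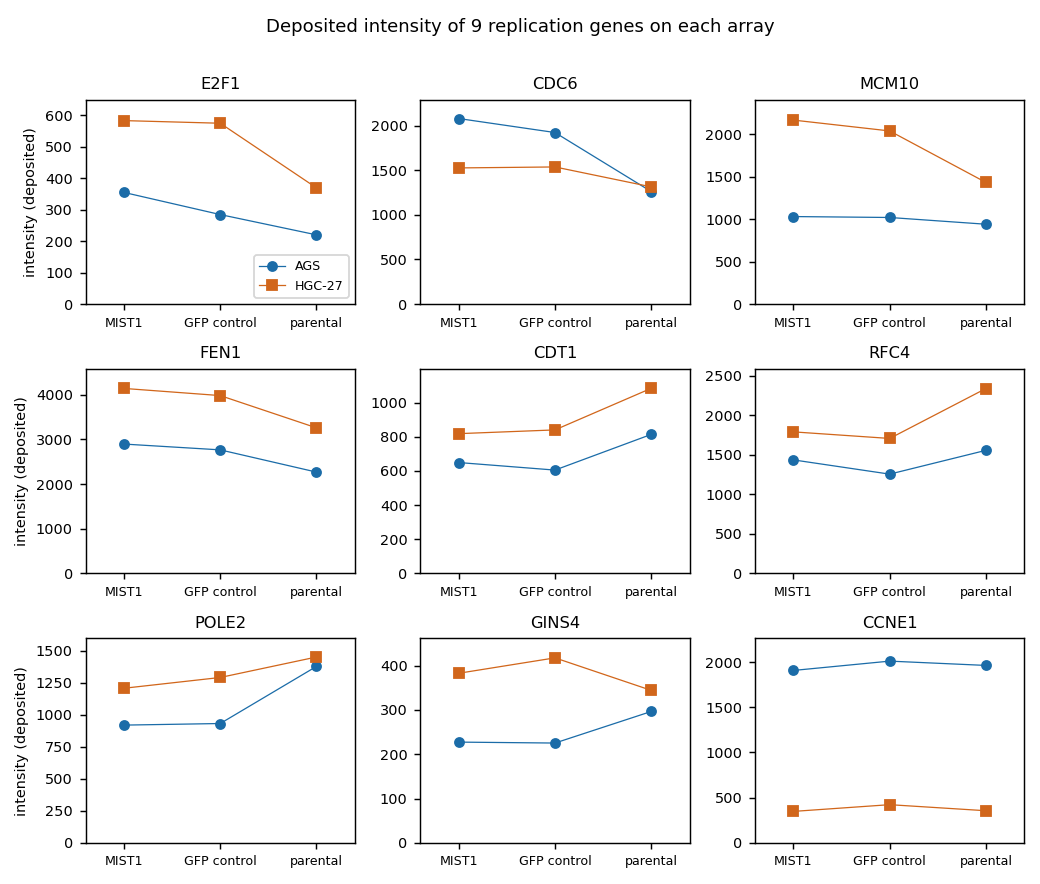
Deposited intensity (vertical axis, linear, from 0) of 9 replication genes on the 6 arrays, by condition and line, each point 1 array with thin lines joining the arrays of a cell line. On the chosen probe sets E2F1, CDC6, MCM10 and FEN1 were higher on both transfected arrays than on the parental array of the same line. CDT1, RFC4 and POLE2 were lower, GINS4 was split between the lines, and CCNE1 separated AGS from HGC-27.

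**Figure D2:**
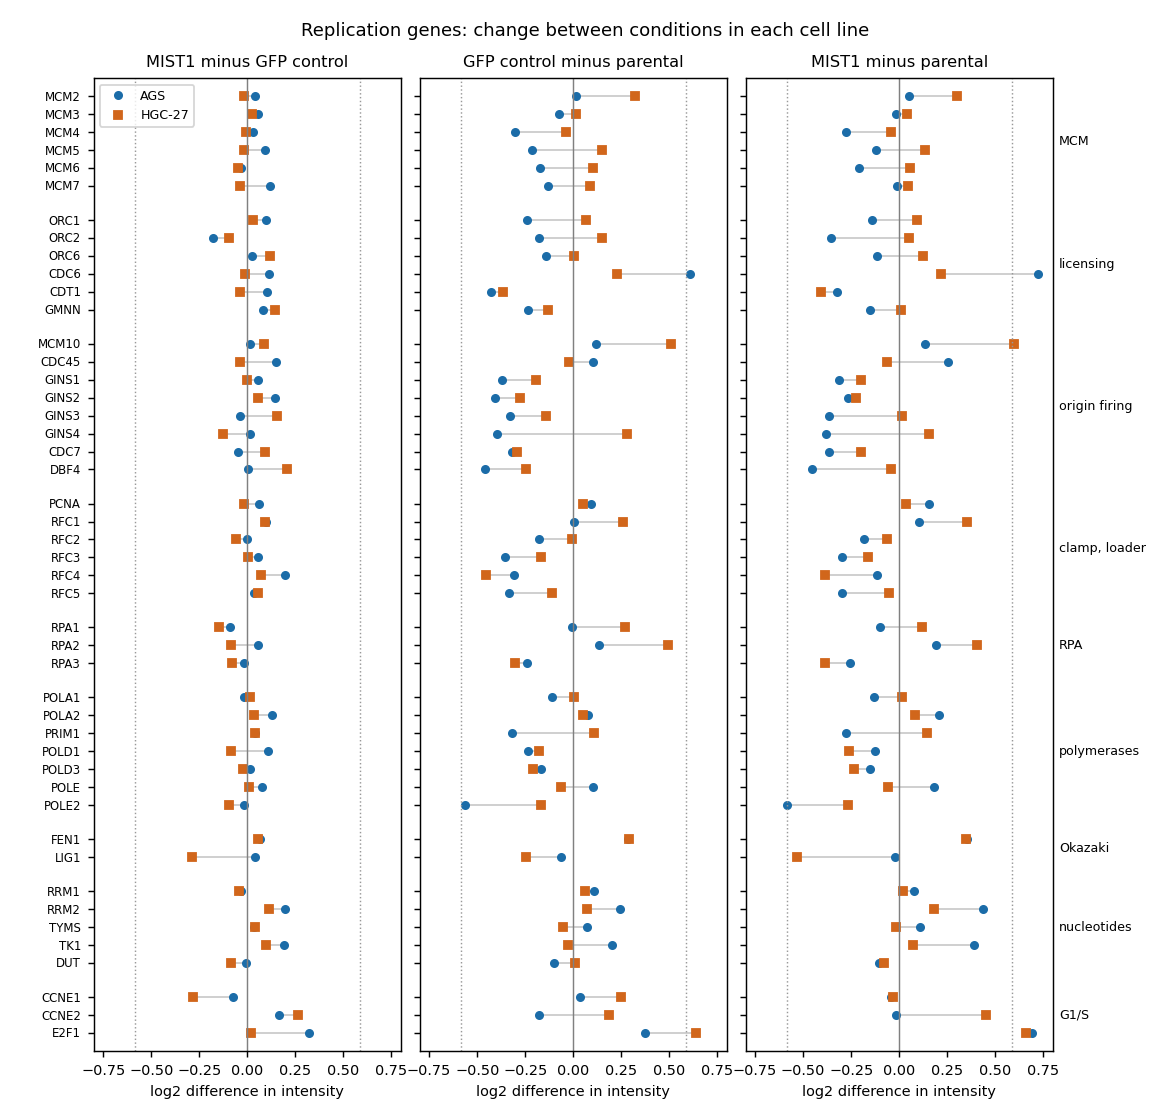
Log2 difference in intensity (horizontal axis) of the 46 genes by role, with AGS as circles and HGC-27 as squares, for the 3 comparisons of conditions, which share arrays. Dotted lines mark 1.5-fold. On the chosen probe sets, which are those drawn, 0 genes reached it in the left panel. For GFP control minus parental CDC6 passed it in AGS and E2F1 in HGC-27.

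Against parental cells, the same genes spread further, and in both directions. The members' log2 differences between GFP control and parental cells had an SD of 0.242 in AGS and of 0.235 in HGC-27. Over all genes these SDs were 0.429 and 0.492. None of the 46 members passed the test for this comparison (limma), against 20 genes called higher (0.146%) and 17 lower (0.124%) over the whole table. At an unadjusted p under 0.05 there were 4 members higher, against 15.1% of all genes, and 9 lower, against 8.04% of all genes. The median log2 difference was -0.04 for the members and 0.07 for all genes. On the chosen probe sets 1 member, CDC6, was at least 1.5-fold higher in AGS (8% of all genes), and 1, E2F1, in HGC-27 (13.1%). None was 1.5-fold lower, against 6.03% of all genes in AGS and 5.27% in HGC-27. The comparison depends on the parental arrays, each the only one of its line. Without the AGS parental array the members' median log2 difference was 0.007, and that of all genes 0.116. Without the HGC-27 parental array these were -0.162 and 0.016.

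The licensing factors CDC6 and CDT1 stood on opposite sides of the parental level. CDC6, which recruits the helicase with CDT1, read 2081 in MIST1 cells, 1924 in the GFP control and 1262 in parental AGS cells, and 1527, 1538 and 1315 in HGC-27. All 4 transfected values exceeded the parental value of their line, and the log2 difference of GFP control minus parental was 0.42 (SE 0.14, adjusted p = 0.146, limma). CDT1 read 649 in MIST1 cells, 605 in the GFP control and 814 in parental AGS cells, and 818, 840.1 and 1084 in HGC-27. All 4 transfected values were below the parental value of their line, with a log2 difference of -0.40 (SE 0.12, adjusted p = 0.121, limma). E2F1, with the values above, had a log2 difference of 0.50 (SE 0.15, adjusted p = 0.121, limma), made of 0.37 in AGS and 0.64 in HGC-27.

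At the fork, RFC4, a small subunit of the clamp loader, read 1435 in MIST1 cells, 1255 in the GFP control and 1556 in parental AGS cells, and 1789, 1706 and 2337 in HGC-27. Both transfected arrays were below parental in each line, and the log2 difference of GFP control minus parental was -0.38 (SE 0.10, adjusted p = 0.111, limma). POLE2, the accessory subunit of polymerase epsilon, read 919, 931 and 1377 on the AGS arrays, in the order MIST1, GFP control and parental, and 1207, 1291 and 1450.5 on the HGC-27 arrays. Its log2 difference was -0.37 (SE 0.13, adjusted p = 0.165, limma), -0.56 in AGS and -0.17 in HGC-27. FEN1, the nuclease that trims Okazaki fragments and the member with the smallest adjusted p here, was singled out after its values were seen. It read 2895 in MIST1 cells, 2765 in the GFP control and 2267 in parental AGS cells, and 4139.8, 3979.8 and 3258 in HGC-27. The log2 difference was 0.29 (SE 0.07, adjusted p = 0.0924, limma), with 0.29 in each line.

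Directions were also counted over all 4 transfected arrays. MCM2, MCM10, CDC6, PCNA, RFC1, RPA2, POLA2, FEN1, RRM1, RRM2 and E2F1 were above the parental array of their line on all 4, which makes 11 members (23.9%) against 30.1% of all genes. MCM4, CDT1, CDC7, DBF4, GINS1, GINS2, RFC2, RFC3, RFC4, RFC5, RPA3, POLD1, POLD3, POLE2 and LIG1 were below it on all 4, which makes 15 members (32.6%) against 18.8% of all genes. Complexes were divided on the probe sets chosen. The 4 small RFC subunits were below parental and the large subunit RFC1 above it, RPA3 was below and RPA2 above, and both subunits of the CDC7-DBF4 kinase were below. A further probe set of RFC1 read 759 in MIST1 cells and 731 in the GFP control, against 871 in parental AGS cells. Further probe sets of RFC3 and RFC5 were above parental in HGC-27, by 0.16 and 0.23 on the log2 scale for the GFP control. Those of MCM10 were below parental in AGS, with log2 differences of -0.40 and -0.24 for the GFP control. With quantile normalization or with each array centred on its median gene, PCNA, POLA2, RRM1 and RRM2 left the first group and LIG1 the second, while the other members of both kept their place. The group above parental then held 7 members under either scaling, against 28.3% of all genes after quantile normalization and 26.6% after centring. The group below it held 19 (41.3%) after quantile normalization and 22 (47.8%) after centring, against 22.7% and 24.7% of all genes. These 4 arrays share 2 parental arrays, so the directions are not independent of each other.

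MIST1 against parental cells, the second control of the design, shares arrays with both comparisons above. It called 301 genes higher (2.19%) and 166 lower (1.21%), and 0 members in either direction (limma). At an unadjusted p under 0.05 it listed 6 members higher, against 16.2% of all genes, and 7 lower, against 9.98%. On the chosen probe sets E2F1 was the 1 member at least 1.5-fold higher in both lines, at 1.61-fold in AGS and 1.58-fold in HGC-27. Of all genes 3.86% met that mark. None was 1.5-fold lower in both (1.74%). Its log2 difference was 0.67 (SE 0.15, adjusted p = 0.0595, limma). FEN1 was at 0.35 (SE 0.07, adjusted p = 0.0538, limma) and RRM2 at 0.31 (SE 0.08, adjusted p = 0.0731, limma).

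MCM10, which helps to activate the helicase, read 1030.4 in MIST1 cells, 1019.55 in the GFP control and 940.1 in parental AGS cells, and 2167, 2039 and 1433 in HGC-27. The difference from parental cells was 0.13 in AGS and 0.60 in HGC-27 on the log2 scale, and 0.36 over both lines (SE 0.14, adjusted p = 0.161, limma). CDC6 stood at 0.47 (SE 0.14, adjusted p = 0.103, limma), POLE2 at -0.42 (SE 0.13, adjusted p = 0.109, limma) and CDT1 at -0.37 (SE 0.12, adjusted p = 0.116, limma). After quantile normalization E2F1 alone of the members passed, at 0.65 (adjusted p = 0.0458, limma). Without the AGS parental array the members' median log2 difference was 0.02, and without the HGC-27 one it was -0.12. Over all genes these medians were 0.098 and -0.0005.

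Whether the lines responded alike to transfection and sorting was tested as the difference of their changes, HGC-27 minus AGS, with the MIST1 and GFP control arrays of a line sharing a mean. The fit called 1036 genes with a higher change in HGC-27 (7.54%) and 365 with a lower one (2.66%), and 0 members (limma). At an unadjusted p under 0.05 there were 9 members with the higher change in HGC-27 (22.6% of all genes) and 1 with the lower (8.8%). The members' median difference was 0.13 and that of all genes 0.12. With each array centred on its median gene these became -0.08 and -0.09, so single values are read relative to that shift. Without any 1 of the 4 transfected arrays, 0 genes were called.

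GINS4, a subunit of the GINS complex at the active helicase, had the largest value. It read 383 in MIST1 cells, 418 in the GFP control and 344 in parental HGC-27 cells, and 227, 225 and 297 in AGS. Transfected cells were thus above parental in HGC-27 and below it in AGS, with a difference of 0.61 (SE 0.16, adjusted p = 0.0589, limma). PRIM1, the catalytic subunit of primase, read 2287, 2228 and 2067 in HGC-27 and 694, 673 and 840.4 in AGS, a difference of 0.43 (SE 0.10, adjusted p = 0.0519, limma). MCM10 was also at 0.43 (SE 0.11, adjusted p = 0.0551, limma). On the chosen probe set it was higher than parental in both lines but more so in HGC-27. Further probe sets of MCM10 were below parental in AGS and above it in HGC-27. CDC6 went the other way at -0.44 (SE 0.11, adjusted p = 0.0521, limma), with changes of 0.22 in HGC-27 and 0.67 in AGS. CCNE2 was at 0.42 (SE 0.19, adjusted p = 0.193, limma).

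Members under parental on both transfected arrays of AGS and above it on both of HGC-27 numbered 12 (26.1%), against 15.9% of all genes. They were MCM3, MCM5, MCM6, MCM7, GINS4, ORC1, ORC2, ORC6, RPA1, POLA1, PRIM1 and CCNE2. The list holds for the chosen probe sets. A further probe set was above parental in AGS for CCNE2 and RPA1, and below it in HGC-27 for MCM5, MCM6, MCM7, GINS4 and ORC2. The count of 12 fell to 3 after quantile normalization (10.3% of all genes) and to 1, GINS4, with the arrays centred (7.4%). The opposite split held for CDC45, POLE and TYMS, 3 members against 7.11% of all genes. The place of the other 11 in this group thus depended on how the arrays were scaled.

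**Figure D3:**
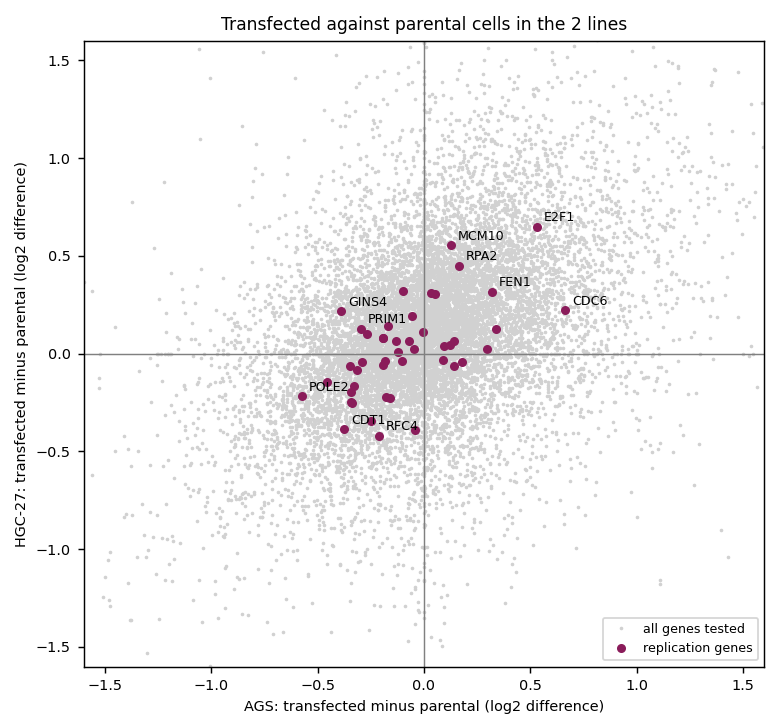
Log2 difference of transfected minus parental cells in AGS (horizontal axis) and in HGC-27 (vertical axis), with the mean of the MIST1 and GFP control arrays of a line as transfected, for all genes tested (grey) and the 46 replication genes (purple). The axes stop at 1.6, which leaves 216 genes outside. E2F1, FEN1 and CDC6 lie in the upper right, CDT1, RFC4 and POLE2 in the lower left and GINS4 and PRIM1 in the upper left.

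Between the lines, most members passed the test. AGS against HGC-27 was fitted with the 3 conditions of a line in place of replicates, so its p-values leave out the variation among cultures of 1 line under 1 condition. Of the 46 members 13 were called higher in AGS (33.1% of all genes were) and 25 lower (27.1%), so that the lower calls made 54.3% of the set (limma). The arrays of the lines did not overlap for 14 members that were higher in AGS (34.1% of all genes) and 24 that were lower (27.2%). At least 1.5-fold in every condition were 5 higher (19.5%) and 9 lower (15.1%). The median log2 difference was -0.30 for the members and 0.06 for all genes. With the arrays centred these were -0.44 and -0.09. Then 10 members were called higher and 27 lower, while 61.7% of all genes passed in either direction. Without the GFP control array of either line 25 members passed in all, against 38 with it. Of all genes 49.8% passed without the AGS one and 49.9% without the HGC-27 one, against 60.1%.

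The helicase and the factors that fire origins were mostly lower in AGS. All 6 MCM subunits passed, none higher. MCM7 read 2103 in MIST1 cells, 1938 in the GFP control and 2122 in parental cells of AGS, against 4474, 4598 and 4336 in HGC-27, a log2 difference of -1.12 (SE 0.07). MCM3 read 1545, 1485 and 1566 in AGS, against 2707, 2658 and 2634 in HGC-27, a log2 difference of -0.80 (SE 0.07). In licensing, 4 of 6 genes were lower in AGS and 1, ORC2, was higher. The call of ORC2 was lost without the filter and with the mean of all probe sets. A further probe set of ORC2 read 218, 253 and 411 in AGS against 239, 272 and 307 in HGC-27, so only its parental array was higher in AGS. Of the 8 genes of origin firing 6 were lower, among them CDC7, the catalytic subunit of the firing kinase, which read 614, 635 and 791 in AGS against 1526, 1431 and 1752 in HGC-27 and differed by -1.21 (SE 0.09). GINS1 was the exception in its complex. It read 1983, 1906 and 2464 in AGS against 1066, 1069 and 1223 in HGC-27, a log2 difference of 0.91 (SE 0.08), while GINS2, GINS3 and GINS4 were lower in AGS.

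The clamp, the loader and the polymerases were divided. PCNA, the sliding clamp, read 7166, 6865 and 6439 in AGS against 4189.5, 4238 and 4092 in HGC-27, a log2 difference of 0.71 (SE 0.05). Of clamp and loader genes 4 of 6 were higher in AGS and 2 lower, RFC2 and RFC4. The calls of RFC3 and RFC5 were lost with quantile normalization, with centring, without the variance trend and without the GFP control or MIST1 array of either line, and with the mean of all probe sets RFC3 was called lower in AGS. Primase had the widest gap among lower genes, with PRIM1 at 0.334-fold of HGC-27, a log2 difference of -1.58 (SE 0.11). Among the 7 polymerase and primase genes 2, POLD1 and POLE, were higher in AGS and 3 were lower. RPA3, the small subunit of the single-strand binding complex, read 1892, 1914 and 2259.6 in AGS against 3057, 3236 and 3993 in HGC-27, a log2 difference of -0.76 (SE 0.07), and it was the 1 of 3 RPA genes to pass. LIG1, the ligase that seals Okazaki fragments, went the other way at 711, 691 and 722 in AGS against 272, 332 and 394 in HGC-27, a log2 difference of 1.11 (SE 0.13), while FEN1 was lower in AGS.

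In nucleotide supply, TK1 and TYMS, which make thymidylate, were higher in AGS, DUT, which degrades dUTP, was lower, and RRM1 and RRM2 did not pass. The call of TYMS was lost with quantile normalization, with centring, without the filter and without the variance trend. It was also lost without the GFP control or MIST1 array of either line. CCNE1 had the largest difference of the set, 5.25-fold higher in AGS at 2.39 on the log2 scale (SE 0.10), and the smallest gap within a condition was 4.77-fold. CCNE2 was also higher in AGS and E2F1 lower. All log2 differences of single members given for the lines had adjusted p of 0.000399 or less (limma). The 8 members that did not pass were DBF4, RPA1, RPA2, POLA1, POLD3, RRM1, RRM2 and CDC6, which does not show that they are alike in the lines. By E2F letters, the median was -0.36 for the 18 members with a match and -0.29 for the 21 without. Between GFP control and parental cells these medians were -0.03 and -0.05.

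**Figure D4:**
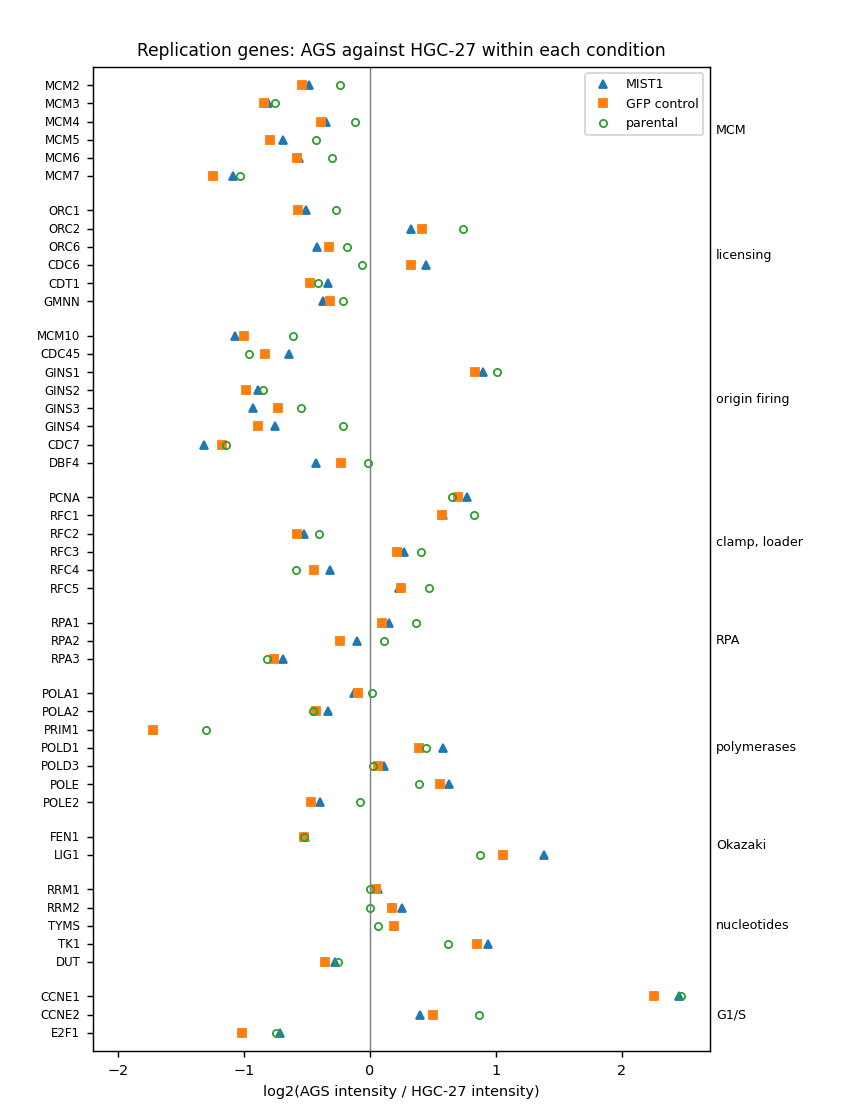
Log2 of the AGS intensity over the HGC-27 intensity (horizontal axis) within each condition for the 46 genes by role, with triangles for MIST1, squares for the GFP control and circles for parental cells. CCNE1 lies farthest right and PRIM1 farthest left, and all 6 MCM genes lie left of 0 in every condition.

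A second list of replication, chromatin assembly and nucleotide genes outside the set gave 53 that were tested. SHMT1, a folate enzyme, did not pass the filter on low values. With MIST1 against the GFP control 0 of the 53 passed (limma), and 1 had an unadjusted p under 0.05. This was RNASEH2A, the catalytic subunit of RNase H2, at 1623 with MIST1, 1224 in the GFP control and 1559.65 in parental AGS cells and 2471, 2031 and 2363 in HGC-27. Its MIST1 value exceeded both controls in each line, with a log2 difference from the GFP control of 0.35 (SE 0.09, adjusted p = 1, limma). CHTF18, of an alternative clamp loader, was at 0.34, 0.59 in AGS and 0.10 in HGC-27, and POLD4, a small subunit of polymerase delta, at 0.28. The sign of POLD4 turned to -0.41 without the AGS GFP control array and to -0.45 without the HGC-27 MIST1 array.

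DCK, which phosphorylates deoxycytidine for the salvage pathway, was the 1 gene of the 53 to pass for MIST1 against parental cells. It read 932 in MIST1 cells and 968 in the GFP control, against 1448 in parental AGS cells. In HGC-27 it read 782 and 827 in the same order, against 1230.33 in parental cells. All 4 transfected arrays were below both parental arrays. The log2 difference was -0.64 (SE 0.11, adjusted p = 0.0407, limma) for MIST1 and -0.58 (SE 0.11, adjusted p = 0.0622, limma) for the GFP control. Without the AGS MIST1 array the adjusted p of MIST1 minus parental was 0.138, and without the HGC-27 one it was 0.155 (limma). CHTF18 stood at 0.55 for MIST1 minus parental. POLD4 stood at 1.61, a mean of 0.19 in AGS and 3.03 in HGC-27, where the parental value lay under the floor of 17.6 and the floor sets the size. For GFP control minus parental 10 of the 53 had an unadjusted p under 0.05, all lower, against 8.04% of all genes in that direction. MTBP, a partner of the origin-firing factor Treslin, was at -0.44 and RNASEH2B, another RNase H2 subunit, at 0.39, and neither passed.

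Between the lines 17 of the 53 were higher in AGS and 22 lower (limma). MTBP read 57.5, 58.2 and 85.1 in AGS against 776, 696 and 879.6 in HGC-27, a log2 difference of -3.57 (SE 0.13). DSCC1, also of the alternative clamp loader, read 405, 370.3 and 495 in AGS against 4305, 3389 and 4003 in HGC-27, a log2 difference of -3.21 (SE 0.10). POLD4 read 806, 681 and 709 in AGS against 144, 117 and 13.2 in HGC-27, a log2 difference of 3.45 (SE 0.53) that is understated since the parental HGC-27 value lay under the floor of 17.6.

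Other probe sets of the members gave a check on direction. Of the members 25 had 34 further probe sets that passed the filter. With MIST1 against the GFP control, 25 of the 34 had the sign of the chosen probe set in AGS and 19 in HGC-27. For GFP control minus parental 28 had it in AGS and 17 in HGC-27. For MIST1 minus parental 26 had it in AGS and 19 in HGC-27. The direction of a member therefore often depended on the probe set chosen, more so in HGC-27.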

How the data were processed

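Total RNA (5 µg per array) of the 6 cell samples was hybridised to 1-colour Affymetrix arrays, per the labels' protocols. The authors deposited 1 linear intensity per probe set and array. The series design text names dChip, and the background correction and scaling are not given in the sources used here. Genes were named from the platform annotation for the 41097 of 54675 probe sets with a single gene.

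Intensities were floored at the 25th percentile (17.6) and taken to log2. Probe sets above the median of all values (50.53) on at least 2 of 6 arrays were kept. Genes were fitted with limma 3.58.1 in R 4.3.3 (lmFit, eBayes with trend, line plus condition), two-sided, with Benjamini-Hochberg adjustment over 13738 genes and a threshold of 0.05. The fit left 2 residual and 4.47 prior degrees of freedom (4.35 for the difference between lines). Cell line was the block, since arrays of a line share it. Deviations from condition means correlated at 0.943 to 0.986 between arrays of a line. P-values between conditions measure the spread between single arrays of 2 lines, which may be technical. The number of arrays limits the precision. The script was tested on simulated data. The members and lists were chosen with earlier results of these data known. Members named with every array were, per comparison, up to 8 passing the test (smallest p first) and the 5 largest with 1 sign in both lines, or the 5 largest of either sign for the difference between lines, plus the 3 largest of the second list.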

Additional observations from a re-analysis of the deposited data

Results flagged for a closer look

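No member stood out by the rules used to look for results worth a second look. Groups held 2 or 3 arrays, which is too few to search for a sample far from the others. Of the second list of replication genes, 5 changed differently in HGC-27 than in AGS by a test of the difference itself (limma, over all genes). POLD4 differed by 2.82 on the log2 scale (adjusted p = 0.00656), with changes of 2.88 in HGC-27 and 0.06 in AGS, and the parental HGC-27 array lay under the floor. RRM2B, the p53-responsive subunit of ribonucleotide reductase, differed by 0.73 (adjusted p = 0.0373), with changes of 0.64 and -0.09. The remaining 3 are named because they passed, a choice made with their values known. TIPIN, of the fork protection complex, differed by 0.68 (adjusted p = 0.0334), DCTPP1, which hydrolyses dCTP, by 0.54 (adjusted p = 0.0252), and WDHD1, which ties polymerase alpha to the helicase, by 0.64 (adjusted p = 0.0431). On the deposited scale the mean change of these 3 was above 0 in HGC-27 and below 0 in AGS. All 5 lost the call without the filter and without any single transfected array, and RRM2B, TIPIN and WDHD1 lost it after quantile normalization.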

How the results depend on the processing

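For MIST1 against the GFP control, 0 members passed under every alternative run. For GFP control against parental, leaving out 1 array gave 0 to 21 members, and for MIST1 against parental 0 to 22, while quantile normalization gave 1. For AGS against HGC-27 leaving out 1 array gave 25 to 43 members (49.8 to 72.4% of all genes). The count was 25 without either GFP control array, against 38 with all arrays (60.1%). For the difference between lines 1 member (CDC6) passed after quantile normalization (7.43% of all genes). Without a floor 3 did (11.9%), and with the mean of all probe sets 3 did (9.79%). With each array centred, an alternative chosen after seeing the data, 2 did (9.15%). The difference between lines could not be fitted without a parental array. Without cell line as a block, 0 genes and 0 members passed in any comparison of conditions, against 0, 37 and 467 genes with it. The AGS comparison without condition as a term gave 34 members (53.4% of all genes). Genes called for MIST1 against the GFP control ranged from 0 to 59, and for the difference between lines from 0 to 1633. With both arrays of each compared condition kept, 0 to 6.82% of genes were called for GFP control against parental. For MIST1 against parental it was 0 to 6.38%. Centring turned the split of genes called for the difference between lines to 406 higher and 851 lower, against 1036 and 365, quantile normalization to 518 and 502. For GFP control minus parental centring gave 1 higher and 6 lower and quantile normalization 29 and 47, against 20 and 17, and for MIST1 minus parental 240 and 246 by centring, against 301 and 166. The sign turned for POLD4 with MIST1 against the GFP control, to -0.41 if the AGS GFP control is dropped and -0.45 if the HGC-27 MIST1 array is (dropping 1 array gave -0.45 to 1.003), and for RNASEH2B with GFP control against parental, to -0.074 with the mean of all probe sets. DCK lost its call without the block, without the filter, without the variance trend, with the floor at the median, with the mean of probe sets and without either MIST1 array. The cause was not tested.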
